A study of Arabidopsis thaliana with 8 samples.

Results

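In 1 of 4 wild-type libraries of young Arabidopsis thaliana floral buds, 142 genes stood more than 4-fold above every other library. They were chosen by their level: a gene was taken when it had at least 1 RPKM (reads scaled by transcript length and by the mapped reads of the library) in WT replicate 1 and more than 4 times the highest value of the other 7 libraries. Of the 33977 genes in the deposited table, 33687 were eligible once genes of the plastid and mitochondrion and a fixed set of 5 loci had been set aside, so the group was 0.422% of them. Of the 5 loci, which are the cell wall invertase CWINV2 and 4 receptor kinases, 1 (CWINV2) met the thresholds and 0 organelle genes did. The choice used all 8 libraries, so the levels of these genes are a description and carry no test.

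The tissue was floral buds pooled from stages 8 to 10, and RNA-seq was made from 4 biological replicates of each of 2 genotypes. The first, called amiRNACWIN24 here, was a single transgenic line (4-3) with the construct pSTK::amiRNACWIN24, an artificial microRNA named for cell wall invertases and driven by the promoter of STK, a MADS box gene of ovule identity. The second was untransformed wild type (WT). The study asked which transcripts differ when invertase activity is targeted where ovules begin. The RPKM values move in steps of 1 read, from which the reads in genes were worked out at 22.5 to 26.2 M in amiRNACWIN24 libraries and 25.5 to 26.7 M in WT libraries, and WT replicate 1 held 25.5 M. The labels give no batch or collection day.

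Pollen develops inside the anther while the ovules form in the carpel. After the microspore mitoses, the male gametophyte builds up a store of transcripts for the pollen tube: pectin methylesterases, pectate lyases and polygalacturonases that shape the tube wall, their inhibitors, small secreted peptides, calcium-dependent kinases and proteins that bundle actin. These transcripts appear late, after the tapetum (the anther layer that feeds the microspores and supplies the pollen coat) has passed its peak. Many of their promoters carry the MEF2-type CArG box, which is bound in pollen by heterodimers of MIKC* MADS proteins such as AGL66 and AGL104.

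The label of late pollen genes was set beside lists of known genes. These lists were chosen with earlier results of these data known, so the overlap is a description and not an independent check. Of 81 genes in the lists for late pollen, 16 were in the group: 9 pectin enzymes of the cell wall list, the kinases CPK17 and CPK24, the actin-bundling LIM proteins PLIM2A and PLIM2C, the ion exchanger CHX23, the surface protein BCP1 and the extensin PEX4 (LRX11). From the lists for pollen transcription factors, sperm cells, tapetum and microspores, pollen coat, ovule and carpel, photosynthetic tissue, embryo and seed, and stress, 0 genes were in the group, and 1 came from the list for petals and late flowers (MYB24). Most of the group, 125 genes, was on no list, so the label rests on its listed genes and on the family names given below. Nor was the group confined to WT replicate 1 in a strict sense: 137 of the 142 genes had at least 1 read in another library, and 5 were at 0 in all 7 others.

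The group amounted to few reads in any library but WT replicate 1. Its summed level was 16.1, 16.4, 20.1 and 20.4 RPKM in amiRNACWIN24 replicates 1 to 4, against 545.0, 41.8, 15.8 and 16.5 RPKM in WT replicates 1 to 4. WT replicate 1 was far above all others, WT replicate 2 came next, and the remaining WT libraries overlapped the amiRNACWIN24 libraries. In reads the group held 616, 633, 782 and 778 in amiRNACWIN24 libraries, against 19661, 1517, 551 and 605 in WT libraries. Even in WT replicate 1 this was 0.0771% of the reads in genes. The median gene had 2.5 RPKM and 96.5 reads there, the range was 1.01 to 18.4 RPKM, and 22 genes had fewer than 50 reads. In bulk tissue, fewer cells of a type and less RNA per cell cannot be told apart, so these sums do not say how much pollen each pool held.

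**Figure D1:**
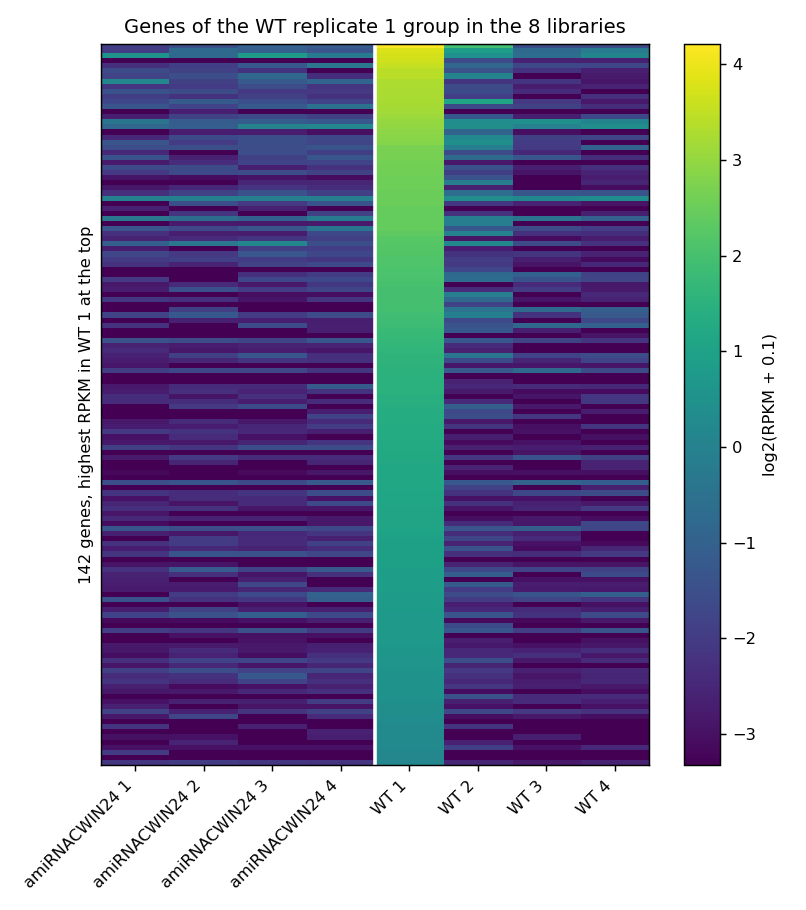
Level of the 142 genes (rows, ordered by WT replicate 1) in the 4 amiRNACWIN24 libraries (left of the white line) and the 4 WT libraries (right), as log2(RPKM + 0.1). WT replicate 1 is bright in every row because the rule chose it so, and WT replicate 2 shows a fainter set of rows.

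Across the group the ratio of WT replicate 1 to the highest other library ran from 4.11 to 155, with a median of 12.9 and quartiles of 6.92 and 26.6, and 82 genes were over 10-fold. The genes just inside the limit were the lipid-binding gene AT3G04360 at 4.11-fold, CHX23 at 4.15-fold and the acyltransferase GPAT5 at 4.28-fold. Just outside it were MYB21 at 3.97-fold, AT2G32885 at 3.9-fold and AT4G02250 at 3.84-fold. The same rule applied to each other library took 0, 0, 0 and 3 genes for amiRNACWIN24 replicates 1 to 4 and 3, 1 and 0 genes for WT replicates 2 to 4.

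**Figure D2:**
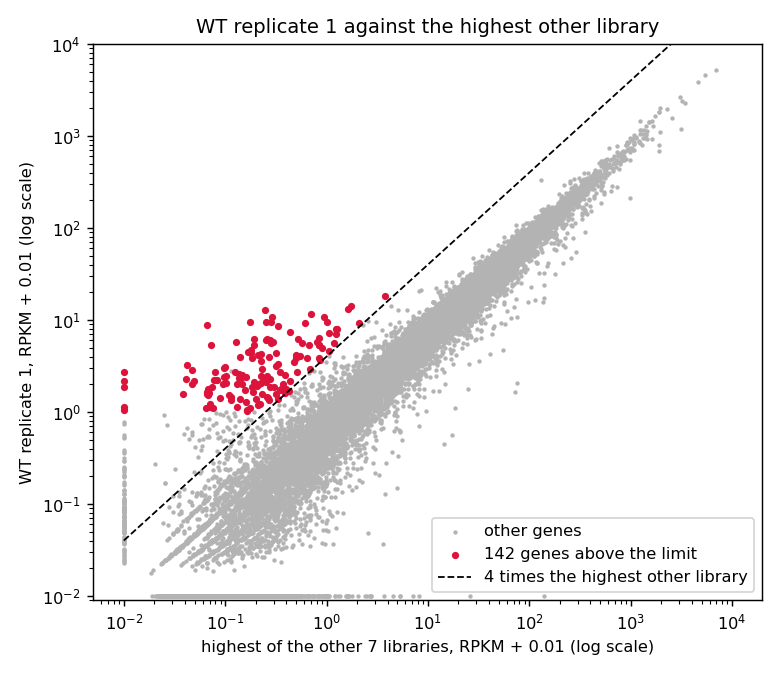
Each point is a gene, with its RPKM in WT replicate 1 (vertical) against its highest RPKM among the other 7 libraries (horizontal), both on log scales with 0.01 added. The 142 red points lie above the dashed line of 4-fold and at 1 RPKM or more, apart from the band of other genes along the diagonal.

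The promoter is shown first for genes that hold the MEF2-type CArG box. Of the 142 genes, 17 (12.0%) had at least 1 such box within the 250 bases before the annotated gene start, against 1.89% of the 19885 coding genes with at least 1 RPKM in any library and a window to scan, and 2.15% of all 27442 coding genes scanned. Both backgrounds include the group itself. The box has 10 bases with a core of 4 bases that are each A or T. Its search pattern is symmetric, so a match on 1 strand is also a match on the other. Its last bases can be the first of an AGAAA, another motif searched, as in AT3G01230. The 6 promoters printed here were picked from the 17 after the scan, and leave out CHX23 and PRXIIC, which also hold a box, because a ratio near the limit or a near-identical copy makes them less clear. The box is in capitals, each sequence runs 5′ to 3′ on the strand of its gene up to the base before the start, and all are from the TAIR10 genome as distributed by RefSeq. They lie at chr2:8240854-8241103 (plus strand, AT2G19000), chr1:9905517-9905766 (minus, AT1G28305), chr5:9282229-9282478 (plus, AT5G26692), chr5:15970637-15970886 (plus, AT5G39880), chr3:77412-77661 (minus, AT3G01230) and chr4:13925088-13925337 (plus, AT4G28000).
AT2G19000: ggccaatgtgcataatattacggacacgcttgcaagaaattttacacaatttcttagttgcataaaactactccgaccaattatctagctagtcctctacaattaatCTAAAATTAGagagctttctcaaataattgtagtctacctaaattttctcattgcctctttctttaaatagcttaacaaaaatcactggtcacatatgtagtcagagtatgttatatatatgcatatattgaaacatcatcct
AT1G28305: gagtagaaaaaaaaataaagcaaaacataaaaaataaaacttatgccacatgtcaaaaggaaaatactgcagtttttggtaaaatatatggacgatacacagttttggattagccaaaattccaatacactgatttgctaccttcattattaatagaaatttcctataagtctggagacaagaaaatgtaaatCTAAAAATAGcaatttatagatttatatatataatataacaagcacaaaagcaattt
AT5G26692: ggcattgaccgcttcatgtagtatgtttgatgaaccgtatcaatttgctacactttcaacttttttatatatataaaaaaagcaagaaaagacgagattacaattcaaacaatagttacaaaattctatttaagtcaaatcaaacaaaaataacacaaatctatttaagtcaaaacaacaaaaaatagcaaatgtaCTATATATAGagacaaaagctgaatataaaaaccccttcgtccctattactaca
AT5G39880: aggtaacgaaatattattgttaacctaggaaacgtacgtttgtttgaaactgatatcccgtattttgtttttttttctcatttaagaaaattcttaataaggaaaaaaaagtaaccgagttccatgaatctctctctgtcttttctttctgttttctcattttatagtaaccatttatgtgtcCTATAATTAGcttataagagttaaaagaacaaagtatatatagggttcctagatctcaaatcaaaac
AT3G01230: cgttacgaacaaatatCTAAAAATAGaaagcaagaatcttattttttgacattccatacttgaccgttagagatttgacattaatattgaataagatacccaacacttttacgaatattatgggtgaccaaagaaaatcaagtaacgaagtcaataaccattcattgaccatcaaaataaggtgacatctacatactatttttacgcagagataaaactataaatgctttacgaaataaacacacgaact
AT4G28000: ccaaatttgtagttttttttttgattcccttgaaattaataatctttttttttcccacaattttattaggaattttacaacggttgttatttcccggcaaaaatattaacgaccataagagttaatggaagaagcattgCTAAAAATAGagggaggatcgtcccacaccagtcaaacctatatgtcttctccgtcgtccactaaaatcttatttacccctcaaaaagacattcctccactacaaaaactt

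None of these 6 windows overlapped another annotated gene. The box began 54, 57 and 67 bases before the start in AT5G26692, AT1G28305 and AT5G39880, and 111, 143 and 234 bases before it in AT4G28000, AT2G19000 and AT3G01230. Over the 19 boxes in the group the median distance was 67 bases, and 15 lay within 150 bases of the start. In the other coding genes with at least 1 RPKM there were 368 boxes at a median of 107 bases, 68.5% of them within 150 bases. The remaining 125 genes had no box in this window, among them LCR11, BCP1 and VGDH1.

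The box was not particular to the group. It was also found in 15 of the 65 other genes of the late pollen lists (23.1%) and in 4 of 37 other genes that were high in both WT replicates 1 and 2 (10.8%), but in 0 of 23 tapetum and pollen coat genes. Within the group it was present in 11 of 82 genes over 10-fold (13.4%) and in 6 of 60 genes up to 10-fold (10.0%). For the other motifs, searched on both strands, the shares in the group were nearer to those of the background. The POLLEN1 motif AGAAA was present in 85.2% of the group against 82.0% of coding genes with at least 1 RPKM, the g10 motif GTGA in 76.8% against 77.4%, the DUO1 site AACCG in 20.4% against 25.4%, and the CArG box of other MADS proteins in 4.93% against 2.75%. All 5 motifs were searched with the group known, the shares are descriptions without a test, and a match is not a binding site.

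**Figure D3:**
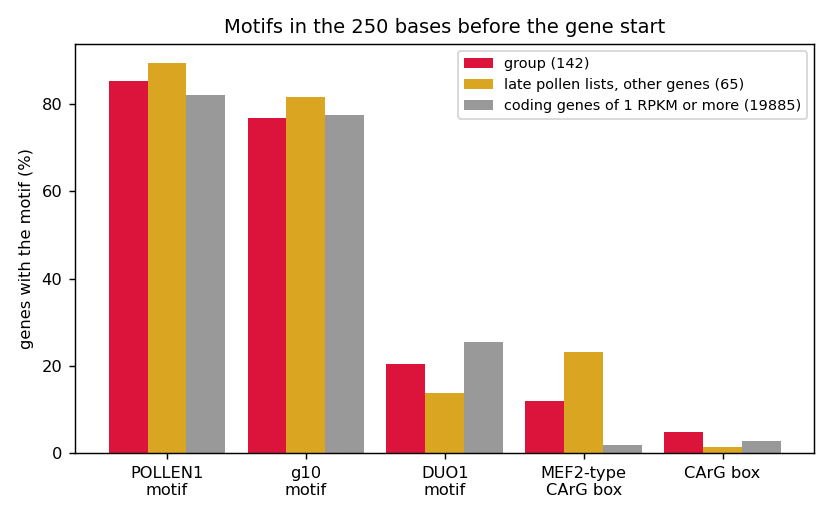
Share of genes (%) with each of 5 motifs in the 250 bases before the gene start, for the 142 genes of the group (red), the 65 other genes of the late pollen lists (yellow) and 19885 coding genes with at least 1 RPKM (grey). The bars for the MEF2-type CArG box stand at 12.0%, 23.1% and 1.89%.

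Enzymes of pectin and their inhibitors numbered 19 of 142 genes (13.4%), against 0.759% of the 19887 coding genes with at least 1 RPKM. These 19887 genes include the group itself, of which 131 genes reached 1 RPKM only in WT replicate 1. This holds for the family and length shares below too. VGDH1 (AT2G47030), a pectin methylesterase related to VANGUARD1, had the highest level of the whole group. It had 0.165, 0.259, 0.417 and 0.351 RPKM in amiRNACWIN24 libraries, against 18.4, 3.78, 0.249 and 0.236 RPKM in WT libraries. WT replicate 2 was also above the rest for this gene, and WT replicates 3 and 4 lay within the amiRNACWIN24 range. VGDH1 sits beside VGD1 and the 2 coding sequences are alike, so reads may have been shared between them in the authors' counting. VGD1 itself had 14.7 to 23.9 RPKM in amiRNACWIN24 libraries and 162, 176, 93.2 and 120 RPKM in WT libraries.

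Of the polygalacturonases, which cut demethylated pectin, AT5G48140 had 0.121, 0.152, 0.245 and 0.123 RPKM in amiRNACWIN24 libraries, against 9.6, 0.235, 0.0487 and 0.0693 RPKM in WT libraries. WT replicate 1 was 39.3-fold above the next library. The value of WT replicate 2 fell among those of the transgenic line, and WT replicates 3 and 4 were below all of them. The pectate lyase AT5G15110 had 0.039, 0.0816, 0.118 and 0.0987 RPKM in amiRNACWIN24 libraries, against 5.69, 0.0567, 0 and 0.0186 RPKM in WT libraries. WT replicate 2 lay within the amiRNACWIN24 range, and WT replicates 3 and 4 below it. The pectate lyase AT59, first known from pollen, reached 3.15 RPKM in WT replicate 1 and the methylesterase PME21 4.38 RPKM, while the pectate lyase AT2G02720, which overlaps a gene on the other strand, reached 1.5 RPKM. The inhibitor gene AT2G31432 had 45 reads in WT replicate 1 and 0 in every other library, which is at least 13.2-fold higher when a floor of 3 reads per library is put in place of 0.

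Some of these enzymes stood next to relatives that behaved otherwise. On chromosome 3, the polygalacturonase genes AT3G07830 and AT3G07840 belong to a run of such genes, with AT3G07820 and AT3G07850 on either side by locus number. AT3G07830 had 0, 0.0514, 0.0496 and 0.0249 RPKM in amiRNACWIN24 libraries, against 7.31, 0.429, 0.0247 and 0 RPKM in WT libraries, and AT3G07840 had at most 0.0583 RPKM outside WT replicate 1, which held 1.75 RPKM. In contrast AT3G07850 had 82.5, 57.6, 77.1 and 66.3 RPKM in amiRNACWIN24 libraries, against 421, 493, 328 and 372 RPKM in WT libraries. Its 4 WT libraries were all above the transgenic ones and WT replicate 1 was not the highest. AT3G07820 had 1.41 to 3.25 RPKM in amiRNACWIN24 libraries, against 80.5, 67.6, 10.2 and 18.8 RPKM in WT libraries.

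On chromosome 5, PME49 lies between PME48 and PME50 by locus number. PME49 had 0.654, 0.356, 0.37 and 0.318 RPKM in amiRNACWIN24 libraries, against 8.03, 1.19, 1.27 and 0.949 RPKM in WT libraries. The rule set WT replicate 1 above all others. WT replicates 2 to 4 also lay above the amiRNACWIN24 range, but PME49 was not tested without WT replicate 1. PME48 had 29.1 to 43.2 RPKM in amiRNACWIN24 libraries and 163 to 304 RPKM in WT libraries. PME50 had 1.13 to 2.42 RPKM in amiRNACWIN24 libraries, against 49.1, 50.3, 7.08 and 15.9 RPKM in WT libraries. Members of these families are similar in sequence, and how the authors' counting split shared reads is not given in the sources used here.

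Secreted peptides formed the next families. RALF peptides, ligands of CrRLK1L receptor kinases, were 5 of the 142 genes (3.52%, against 0.101% of coding genes with at least 1 RPKM). RALFL15 had 0.23, 0.181, 0.116 and 0 RPKM in amiRNACWIN24 libraries, against 10.7, 0.279, 0.116 and 0.0549 RPKM in WT libraries. RALFL25 had 0.0624, 0, 0.0631 and 0 RPKM in amiRNACWIN24 libraries, against 5.33, 0, 0 and 0 RPKM in WT libraries, a ratio of 84.5 that rests on 1 read in each of 2 libraries. Its neighbour RALFL26 reached 3.93 RPKM, RALFL20 4.16 RPKM and RALFL30 1.84 RPKM in WT replicate 1, and RALFL30 was at 0 elsewhere. RALFL25 and RALFL26 are similar copies, so reads may have been shared. The pollen tube peptides RALFL4 and RALFL19, which keep the tube wall intact, were outside the group: RALFL4 had 0.611 to 1.1 RPKM in amiRNACWIN24 libraries and 14.1, 18.1, 5.83 and 6.83 RPKM in WT libraries.

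Small cysteine-rich proteins of the defensin and SCR-like families were 10 of the 142 genes (7.04%, against 1.05%, where the words searched also caught unrelated enzymes named for methionine). LCR11 had 0 RPKM in each amiRNACWIN24 library, against 12.7, 0.238, 0.0618 and 0.0586 RPKM in WT libraries. Its 226 reads in WT replicate 1 compare with 4 in WT replicate 2, 1 each in WT replicates 3 and 4, and 0 in the transgenic line. The others ranged from 1.03 RPKM (AT1G51915, 17 reads) to 6.03 RPKM (AT5G60615) in WT replicate 1. Homologues of the self-incompatibility protein S1 of poppy, a secreted pistil protein in that plant, were 8 of the 142 genes (5.63%, against 0.0704%). They reached 2.12 to 6.15 RPKM in WT replicate 1 and none passed 0.216 RPKM in any other library. AT1G28305 had 64 reads in WT replicate 1 and 0 elsewhere, at least 18.7-fold higher against the floor of 3 reads per library, and the adjacent S1 homologue AT1G28306 had 3.83 RPKM in WT replicate 1 and at most 0.172 RPKM elsewhere.

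Surface and wall proteins without a catalytic role included BCP1, the homologue of a Brassica pollen protein. It had 0.106, 0.166, 0.321 and 0.697 RPKM in amiRNACWIN24 libraries, against 11.7, 0.463, 0.213 and 0.202 RPKM in WT libraries. The amiRNACWIN24 libraries spanned the values of WT replicates 2 to 4. The anther protein gene AT3G26110 reached 8.51 RPKM in WT replicate 1 at 26.7-fold, and the proteoglycan-like gene AT5G54095 reached 14.0 RPKM at 8.01-fold. The pollen extensin PEX4, a leucine-rich repeat protein of the tube wall, reached 1.39 RPKM at 5.53-fold. The cupin genes AT5G26700 and GLP8 reached 13.1 and 9.61 RPKM, and both overlap a gene on the other strand, whose reads cannot be told apart here.

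Protein kinases were 7 of the 142 genes (4.93%, against 5.35%), at 1.37 to 2.7 RPKM in WT replicate 1. CPK24, a calcium-dependent kinase that acts on a potassium channel of the pollen tube, had 0.0487, 0.102, 0.0656 and 0.115 RPKM in amiRNACWIN24 libraries, against 2.7, 0.0472, 0.0163 and 0.0155 RPKM in WT libraries. WT replicates 2 to 4 lay below all 4 transgenic libraries for this gene, on a few reads each, and it overlaps a gene on the other strand. CPK17, needed for pollen tube growth, had 0.0896 to 0.19 RPKM in amiRNACWIN24 libraries, against 1.37, 0.0831, 0.0517 and 0.0817 RPKM in WT libraries. Its close relative CPK34 had the same pattern below the minimum, with 0.584 RPKM in WT replicate 1 and at most 0.0735 RPKM elsewhere. Genes described as calcium or lipid binding numbered 9, of which 2 were these kinases, and the highest of them were AT4G27580 at 6.35 RPKM and the EF-hand protein gene CML6 at 5.97 RPKM in WT replicate 1.

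PLIM2C and PLIM2A, LIM proteins that bundle actin filaments in pollen, differed in how sharply they stood apart. PLIM2C had 0.0372, 0, 0 and 0 RPKM in amiRNACWIN24 libraries, against 2.84, 0.0361, 0.0375 and 0.0355 RPKM in WT libraries, which is 1 read in every library that held any but WT replicate 1. PLIM2A had 0.685, 0.53, 0.391 and 0.785 RPKM in amiRNACWIN24 libraries, against 5.28, 0.838, 0.63 and 0.398 RPKM in WT libraries. Both overlap a gene on the other strand. Their relative PLIM2B was expressed throughout, at 11.1 to 15.1 RPKM in amiRNACWIN24 libraries and 23.9 to 35.0 RPKM in WT libraries.

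Other roles were represented by 1 or a few genes each. The peroxiredoxins PRXIID and PRXIIC, which are near-identical thioredoxin-dependent peroxidases, reached 9.49 and 7.88 RPKM in WT replicate 1. PRXIID had at most 0.272 RPKM elsewhere, whereas PRXIIC had 0.372 to 1.03 RPKM in amiRNACWIN24 libraries and 0.919 to 1.23 RPKM in WT replicates 2 to 4. PRXIIC, unlike PRXIID, overlaps a gene on the other strand, whose reads cannot be told apart here. MYB24, a transcription factor of stamen maturation in late flowers, had 0.0372, 0, 0 and 0 RPKM in amiRNACWIN24 libraries, against 2.02, 0, 0 and 0 RPKM in WT libraries. Its partner MYB21 fell just short of the ratio, at 0.157, 0.152, 0.232 and 0 RPKM in amiRNACWIN24 libraries, against 2.65, 0.668, 0.304 and 0.265 RPKM in WT libraries. MYB24 and MYB21 each overlap a gene on the other strand. CHX23 had 0.188 to 0.381 RPKM in amiRNACWIN24 libraries, against 1.58, 0.293, 0.114 and 0.228 RPKM in WT libraries. The F-box gene AT3G62230 reached 9.27 RPKM at 4.44-fold, and the ATPase gene AT4G28000 reached 2.19 RPKM at 55.6-fold.

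The sharpest single difference was in a gene of no described function. AT2G19000 had 0, 0.0566, 0 and 0 RPKM in amiRNACWIN24 libraries, against 8.78, 0, 0 and 0 RPKM in WT libraries, that is 177 reads in WT replicate 1 and 1 read in all other libraries together. AT5G39870 had 106 reads in WT replicate 1 and 1 read elsewhere, at 3.23 and 0.0316 RPKM in WT replicates 1 and 4. Genes described as uncharacterized or hypothetical numbered 26 (18.3%, against 10.5% of coding genes with at least 1 RPKM). Among them AT5G39880 had 0.188 to 0.597 RPKM in amiRNACWIN24 libraries, against 9.14, 0.224, 0.181 and 0.0979 RPKM in WT libraries, and AT5G62750 and AT3G62640 reached 7.21 and 7.09 RPKM in WT replicate 1. The putative lipoprotein AT5G26692 reached 9.44 RPKM at 56.4-fold and AT3G01230 reached 10.6 RPKM at 11.5-fold. A further 3 genes were glycosyl hydrolases, at 3.0 to 4.64 RPKM in WT replicate 1, and 3 were lipases or esterases, at 1.55 to 3.85 RPKM. The remaining 54 genes fell in none of the families counted.

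The group shared features that its rule did not use. Its median exon length was 1184 nt, against 1746 nt in the coding genes with at least 1 RPKM, and its median protein 214 residues, against 379. Genes with 1 exon were 47 of 142 (33.1%, against 14.0%), and proteins under 150 residues were 48 of 142 (33.8%, against 10.6%). RPKM divides by length, so a minimum in RPKM admits short genes on fewer reads than long ones. Chromosomes 1 to 5 held 35, 19, 40, 18 and 30 of the genes. Of 7 pairs within 3 places of each other, 6 were direct neighbours, among them AT5G39870 with AT5G39880 and AT2G19000 with the lipase AT2G19010. A gene on the other strand overlapped 29 of the 142 (20.4%, against 27.0%).

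Outside WT replicate 1, WT replicate 2 was most often next. It held the second-highest value for 57 genes, against 9, 16, 12 and 29 genes for amiRNACWIN24 replicates 1 to 4 and 8 and 6 genes for WT replicates 3 and 4. In 27 genes WT replicate 2 was more than 2-fold above the remaining 6 libraries, in 15 of them more than 4-fold. Beside VGDH1, these included AT3G62230 with 2.09 RPKM in WT replicate 2 and at most 0.339 RPKM in the remaining 6, and AT3G07830. Summed over the 27 genes the level was 1.8, 2.63, 2.71 and 2.68 RPKM in amiRNACWIN24 libraries, against 144, 19.3, 2.12 and 3.02 RPKM in WT libraries. For the other 115 genes the sum was 14.3, 13.8, 17.4 and 17.7 RPKM in amiRNACWIN24 libraries, against 401, 22.6, 13.7 and 13.5 RPKM in WT libraries. WT replicate 2 lay between WT replicate 1 and the remaining libraries in both sets, and the 27 genes were picked for their level in it. A further set of 41 genes, 4 of them in the group, had both WT replicates 1 and 2 over 4-fold above the other 6 libraries. The 37 of them outside the group summed to 4.69 to 10.4 RPKM in amiRNACWIN24 libraries, against 378, 293, 30.0 and 46.6 RPKM in WT libraries.

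Outside WT replicates 1 and 2, the group summed to 16.1 to 20.4 RPKM in amiRNACWIN24 libraries and to 15.8 and 16.5 RPKM in WT replicates 3 and 4. The mean of the 4 amiRNACWIN24 libraries was above the mean of WT replicates 3 and 4 for 89 genes, below it for 44 and equal for 9. Against the mean of WT replicates 2 to 4 it was above for 67, below for 70 and equal for 5. All of these are levels of a few reads: the median gene of the group had 2.0 to 3.0 reads in amiRNACWIN24 libraries and 2.0 to 5.0 reads in WT replicates 2 to 4. Whether single genes differed at these levels was not tested.

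The genotypes were compared over all genes with limma on log2(RPKM + 0.5), which understates the change of low genes, at a Benjamini-Hochberg adjusted p under 0.05. Of 19082 genes tested, 21.0% were lower and 29.4% higher in amiRNACWIN24. Of the group, 23 genes passed the filter of a mean of 1 RPKM and 119 did not. PME49 was called lower (log2 fold change -1.43, SE 0.482, limma adjusted p = 0.0304), 0 were higher and 22 did not pass. Nothing can be read from these counts, since the rule used the same contrast. Without WT replicate 1, where 23.4% of all genes tested were lower and 27.4% higher, 1 gene of the group remained above the filter. That was AT5G26700, at a log2 fold change of 0.06 (SE 0.291, limma adjusted p = 0.87). In the authors' deposited table all 141 genes with a value had a log2 fold change below 0, from -7.71 to -1.17 with a median of -3.62, and 125 had an FDR under 0.05, at which 18.4% of the 25880 genes with a value there were lower in amiRNACWIN24. The contrast in that table includes WT replicate 1, so nothing can be read from these signs and counts either. Not every deposited value follows the RPKM means. VGDH1, with means of 0.298 RPKM in amiRNACWIN24 and 5.66 RPKM in WT, had -4.4, near their ratio. AT3G28770 (0.221 and 0.552 RPKM) had -5.47 and PEX4 (0.199 and 0.418 RPKM) had -3.26, both further below 0 than their means give. The reason was not tested.

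The rest of the late pollen program was compared in the same fit. Of the 46 tested genes of the late pollen lists outside the group, 37 were lower in amiRNACWIN24, 0 were higher and 9 did not pass. Over all genes tested, 21.0% were lower and 29.4% higher. The median log2 fold change was -2.37 for the listed genes, against 0.07 over all genes tested. The lists were chosen with earlier results of these data known, so these counts are a description and not an independent check. Summed over the 65 listed genes outside the group, the level was 445, 325, 439 and 347 RPKM in amiRNACWIN24 libraries, against 2559, 2954, 1556 and 1804 RPKM in WT libraries. All 4 WT libraries were above all 4 amiRNACWIN24 libraries, and WT replicate 2 was the highest. The 16 listed genes inside the group summed to 2.9, 2.76, 3.33 and 3.6 RPKM in amiRNACWIN24 libraries, against 86.6, 8.1, 3.11 and 2.64 RPKM in WT libraries. WT replicates 3 and 4 did not stand above the transgenic line for them. The rule keeps listed genes that were high in several WT libraries out of the group, so nothing can be read from this contrast.

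By role, with the same limit on how the lists were chosen, the cell wall list had 8 of 8 tested genes outside the group lower. AT3G07850 was lower by a log2 fold change of -2.50 (SE 0.144, limma adjusted p = 5.89e-06), PME48 by -2.66 and VGD1 by -2.80. In the arabinogalactan and surface list 6 of 6 were lower, with AGP23 at 31.3 ± 6.37 RPKM in amiRNACWIN24 and 322 ± 76.4 RPKM in WT (SD, n = 4 each). The actin list had 10 of 11 lower, among them the profilin PRF5 at 4.71 ± 0.725 RPKM in amiRNACWIN24 and 39.7 ± 10.2 RPKM in WT. In the list of transporters and pumps 9 of 10 were lower, among them the hexose transporter STP9 at 7.04 ± 2.79 RPKM in amiRNACWIN24 and 68.4 ± 25.7 RPKM in WT. The receptor and peptide list had 2 of 6 lower and the signalling list 2 of 5. Without WT replicate 1, where 23.4% of all genes tested were lower and 27.4% higher, the lists had 36 genes lower and 3 higher. The 3 were the extensin LRX8 (log2 0.60, limma adjusted p = 0.00599), the receptor kinase MDIS1 (0.53, adjusted p = 0.0176) and the lipid kinase PIP5K6 (0.49, adjusted p = 0.0295). The channel gene CNGC18 was no longer called lower then (log2 -0.33, adjusted p = 0.0829, against -0.37 and 0.0394 with all libraries).

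A further 7 late pollen genes stood over 4-fold above the others in WT replicate 1 but below the minimum of 1 RPKM. The NADPH oxidase RBOHH, which makes reactive oxygen at the tube tip, had 0.513 RPKM (47 reads) in WT replicate 1 and 0 in every other library. The receptor kinases PRK1, PRK3 and PRK5 had 0.376, 0.639 and 0.479 RPKM in WT replicate 1, the transporter STP11 had 0.8 RPKM and CPK34 had the value given above. Over all genes, 46 were over 4-fold at 0.5 to 1 RPKM, and 20 genes lay between 3- and 4-fold.

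The lists for other cell types and tissues were summed in each library. The pollen coat list summed to 2158 to 3516 RPKM in amiRNACWIN24 libraries, against 5811, 8907, 7621 and 7996 RPKM in WT libraries, where WT replicate 1 was the lowest of the WT libraries. The tapetum and microspore list summed to 1002 to 1962 RPKM in amiRNACWIN24 libraries and 904, 820, 1622 and 1212 RPKM in WT libraries, with WT replicates 1 and 2 at the low end. The sperm cell list summed to 3.79 to 5.22 RPKM in amiRNACWIN24 libraries, against 12.3 to 20.1 RPKM in WT libraries, where WT replicate 2 was the highest. Pollen transcription factors summed to 40.9 to 51.8 RPKM in amiRNACWIN24 libraries and 66.5 to 68.0 RPKM in WT libraries. The ovule and carpel list summed to 137 to 170 RPKM in amiRNACWIN24 libraries and 121, 147, 170 and 153 RPKM in WT libraries. The embryo and seed list summed to 0.592 to 0.68 RPKM in amiRNACWIN24 libraries, against 1.42, 2.11, 0.458 and 0.626 RPKM in WT libraries. FUS3, a transcription factor of embryo maturation, made up most of the sum in WT replicates 1 and 2, with 0.163 to 0.354 RPKM in amiRNACWIN24 libraries and 1.33, 1.95, 0.235 and 0.356 RPKM in WT libraries. The petal and late flower list summed to 334 to 371 RPKM in amiRNACWIN24 libraries and 389 to 492 RPKM in WT libraries, nearly all of it from the floral organ genes PI and AP3. Its late flower factors MYB21, MYB24 and MYB57 were each highest in WT replicate 1, but the rest of that list was not. PI and AP3 were highest in WT replicate 2. The terpene synthase gene TPS21 had 0.0177 RPKM in WT replicate 1 and up to 0.0194 RPKM elsewhere, and TPS24 was at 0 in all 8 libraries. MYB57 had at most 0.101 RPKM in amiRNACWIN24 libraries, against 0.729, 0.337, 0.0749 and 0.166 RPKM in WT libraries. The photosynthetic list summed to 9999 to 12116 RPKM in amiRNACWIN24 libraries and 14183 to 16858 RPKM in WT libraries, with WT replicate 1 the lowest of these. The part of these tissues in the level of the group in WT replicate 1 was not tested.

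**Figure D4:**
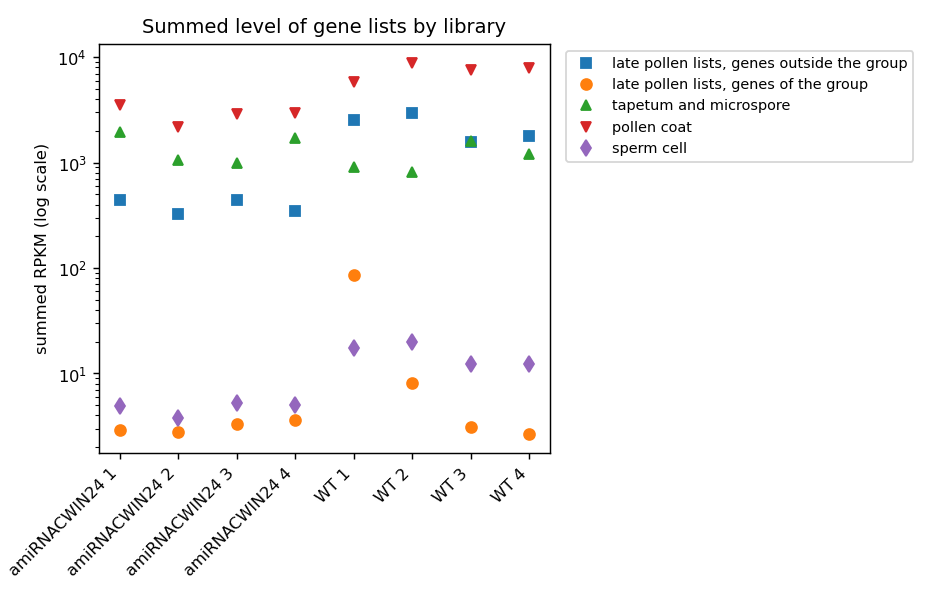
Summed RPKM (log scale) of gene lists in each amiRNACWIN24 library (left) and each WT library (right). Late pollen genes of the group peak in WT replicate 1 at 86.6 RPKM because the rule chose them so. The other late pollen genes lie between 1556 and 2954 RPKM in all 4 WT libraries. Pollen coat genes are lowest in WT replicate 1 among the WT libraries.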

How the data were processed

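RNA-seq of total RNA from floral buds (125 bp paired ends, per the labels' protocols) was analysed for 4 amiRNACWIN24 and 4 WT libraries, grouped by title and genotype label. The authors deposited RPKM values of 33977 genes. Their second deposited table compares the genotypes by log2 fold change, p-value and a signed fold-change score, per the file headers. The submitters' processing notes name the build TAIR10. Not given in the sources used here are the aligner, counter, strand setting and the authors' test. The log2 fold changes and FDR values of the authors are quoted as deposited.

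Of these genes, 32548 matched the TAIR10 annotation from RefSeq, 32532 with the same coordinates, and all 142 genes of the group did so. RPKM moved in steps of 1 read: with the denominator found for each library, 99.6% to 99.7% of values under 1000 reads were whole within 0.05 read. Reads given here are such recovered reads. A count of 0 allows up to 3 reads, which covers counting error only. A value of 1 RPKM in a short gene can rest on 15 reads.

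Testing of genotype used limma (version 3.58.1, R 4.3.3) on log2(RPKM + 0.5), with eBayes and a trend, two-sided, over the 19082 genes whose mean reached 1 RPKM and with Benjamini-Hochberg adjustment at 0.05. On simulated data for this comparison (18994 genes, 200 changed) it called 196 changed and 13 unchanged genes. The simulation gave every gene a dispersion of 0.02 and had no library that stood apart. Its counts therefore do not give the error rate in the real libraries. A read-count test was not run. The labels call the replicates biological and say no more on how they were grown. Alternatives were other thresholds of the rule, pseudocounts of 0.1 and 1, other filters, median-of-ratios scaling, the replicate number as a block and each library left out. Removal of a length trend, a minimum of 50 reads and leaving out WT replicates 1 and 2 together were added after seeing the data.

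The group, the gene lists and the alternatives were chosen with earlier results of these data known. Named genes are the 20 with the highest level in WT replicate 1, the 10 with the largest ratio of reads, every listed one and the 3 nearest the limit (39 in all), plus the 3 just outside and listed late pollen genes of high mean level. Other genes are named as examples of families or lists after their values were seen, and the words that define families were chosen after the genes were seen. Promoters are the 250 bases before the annotated start, and motifs were counted on both strands with Python 3.11.15, numpy 2.4.6 and pandas 2.3.3. Plots were drawn with matplotlib 3.10.9.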

Additional observations from a re-analysis of the deposited data

Results flagged for a closer look

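Each group of 4 libraries was screened for a library whose gap to its nearest neighbour exceeded Dixon's 95% value for 4 samples, as a share of the range, which chance alone gives in about 1 of 20 groups. Among the WT libraries, WT replicate 1 stood apart by this measure for 133 of the 142 genes, where the rule had placed it. It stood apart likewise for their summed level, at 545.0 RPKM, against 41.8, 15.8 and 16.5 RPKM in WT replicates 2 to 4. For the late pollen actin genes outside the group, WT replicate 2 was high among the WT libraries at 375 RPKM, against 279, 282 and 289 RPKM in the others. The stress and wounding list was low in amiRNACWIN24 replicate 1 at 1229 RPKM, against 1429, 1438 and 1404 RPKM in amiRNACWIN24 replicates 2 to 4. PME49 was high in amiRNACWIN24 replicate 1 at 0.654 RPKM, and GPAT5 in amiRNACWIN24 replicate 3 at 0.321 RPKM. The screen covered 32 groups of summed levels and the amiRNACWIN24 values of 39 named genes. A few flags of this kind can therefore come from chance alone.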

How the results depend on the processing

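The number of genes in the group was 142, and 161 at a ratio over 3, 96 at a ratio over 8, 187 at a minimum of 0.5 RPKM, 153 after median-of-ratios scaling and 120 with at least 50 reads in WT replicate 1. It fell to 37 at a minimum of 5 RPKM and to 78 when 0.5 RPKM was added before the ratio, because low denominators then count less. The genotype comparison called 9609 genes, 8211 to 9667 with each library left out, and 5573 after removal of the length trend, of which 3906 were among the 9609. The cause of that drop was not tested. The late pollen genes outside the group called higher in amiRNACWIN24 numbered 0, and 0 to 3 with each library left out: 3 without WT replicate 1 and 1 without amiRNACWIN24 replicate 1. They numbered 3 without WT replicates 1 and 2 together, where 35 were lower. Those called lower were 37, and 31 to 43 under all alternatives run.

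Replicate numbers did not pair the libraries throughout: the correlations of deviations between the same-numbered libraries were -0.273, 0.142, -0.324 and 0.527. The highest correlations with a library of another number were 0.331, 0.355, 0.373 and 0.345, so only replicate 4 was closest to its own number. With the replicate number as a block, 9171 genes were called over all and 36 of the late pollen genes outside the group.

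Depth limits the group throughout: outside WT replicate 1 the median gene had 2.0 to 5.0 reads, so single reads set many of the ratios.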
